A study of Mus musculus with 6 samples.

Results

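The genes described here build, bundle and take apart actin filaments: the Arp2/3 complex, the WAVE complex and other Arp2/3 activators, formins, Ena/VASP proteins, cofilins, profilins, coronins, class I myosins and filament bundlers. They are 44 gene symbols matched to mouse Ensembl identifiers, a set put together with earlier results of these data known, so counts over it are descriptions. The deposited table lists 43 of them among its 23644 genes, and Wasf3 was not analysed here. The knockout libraries (3) were made from 4T1, an established line of mammary tumour cells from mouse, after knockout of Carmil3 and growth of clones from single cells. The control libraries (3) were made from 4T1 cells labelled as wild type. Both kinds of cell were cultured in 6-well plates under the same stated conditions, and RNA was sequenced from whole cultures. The labels state neither the number of clones in the knockout libraries nor whether each library had a culture of its own, so p-values measure the spread between these libraries, which may be technical.

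Branched actin networks grow when the Arp2/3 complex nucleates a new filament on the side of an old one, after activation by proteins of the WAVE or WASP families. Formins and Ena/VASP proteins instead drive growth of unbranched filaments, profilin delivers monomers, cofilin severs old filaments, and bundlers such as fascin, plastin and alpha-actinin hold filaments together. Carmil3 belongs to the CARMIL family, which binds the capping protein that closes filament ends. In carcinoma cells these machines shape lamellipodia, filopodia and invadopodia.

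Levels are in FPKM, read counts scaled by exon length and by the total of reads. The values fit a length merged over all annotated exons of a gene, which can exceed that of its transcripts. Comparisons of level between different genes are therefore approximate. Read totals worked out from the spacing of the values were 18139085 to 19046755 in knockout libraries and 17779120 to 18719080 in control libraries. Carmil3 measured 0, 0.0118 and 0.0241 FPKM in knockout replicates 1 to 3 and 0.0360, 0.0246 and 0.0117 FPKM in control replicates 1 to 3, too low for its loss to be detectable at this depth. Knockout replicate 3 stood apart from its group: its reads differed from those of the other 2 knockout libraries by 17.5 and 18.9 chi-square per degree of freedom, against 3.01 between those 2 and 3.39 to 10.5 between control libraries. The 6 epithelial markers examined (Krt8, Krt18, Epcam, Cdh1, Krt7 and Cldn4) summed to 427 to 472 FPKM in knockout and 1020 to 1120 FPKM in control libraries, and all 6 fell. In the knockout libraries Epcam stood at 0.0270 to 0.132 FPKM, Cldn4 at 0 to 0.0607 FPKM, Krt7 at 0.0893 to 0.195 FPKM and Cdh1 at 0.723 to 0.803 FPKM, so these 4 defining markers of an epithelial line were absent or nearly so, while Krt8 and Krt18 remained. Of 12 leukocyte markers 10 are listed, with sums of 3.95 to 5.40 FPKM in knockout and 5.29 to 5.56 FPKM in control libraries, and Ptprc, which defines leukocytes, was at 0 to 0.00614 FPKM throughout. Of 6 fibroblast markers 4 are listed, with sums of 17.8 to 18.3 FPKM in knockout and at least 11.4 FPKM in control libraries, mostly Pdgfra, which rose (17.6 FPKM on average in knockout and 10.1 FPKM in control libraries), while Col1a1 fell (0.271 FPKM in knockout and 1.501 FPKM in control libraries); Col1a2 was at most 0.00860 FPKM. The 4 endothelial markers listed of 5 summed to at most 0.0682 FPKM. Epcam, Cldn4, Krt7, Cdh1 and Col1a1 passed the filter of 1 FPKM in at least 3 libraries only through the control libraries. Their calls as lower were thus fixed in part by how they entered the test. The part of these differences in the results was not tested, and in RNA from whole cultures fewer cells of a kind and less RNA per cell cannot be told apart.

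Of the 43 listed members, 39 passed the expression filter of 1 FPKM in at least 3 libraries, and each of the 39 had at least 1 FPKM in all 6. The test was limma on log2(FPKM + 1) over all 11171 genes that passed the filter, with Benjamini-Hochberg adjustment over all of them and a threshold of 0.05. In the knockout cells 6 members rose, 14 fell and 19 did not pass, so 51.3% were called, where 35.6% of all tested genes were called. The share that rose was 15.4%, with 16.9% among all genes, and the share that fell was 35.9%, with 18.7% among all genes. For 24 of the 39 the range of the knockout values lay wholly apart from that of the control values, 9 above it and 15 below it; of all tested genes 50.5% did so, 24.2% above and 26.4% below. The members were more abundant than most genes, with a median control mean of 35.9 FPKM against 8.44 FPKM over all tested genes. With the filter raised to 5 FPKM, 39.9% of genes were called (19.4% higher and 20.5% lower), and 19 of the 37 members left were (5 higher and 14 lower). The changes were small: ratios of knockout to control lay between 0.611 for Daam1 and 1.61 for Enah among called members. In a test against a 1.5-fold change 0 of the 39 members passed, where 118 of all 11171 genes were higher and 193 lower. The median absolute log2 change was 0.203 over the members and 0.163 over all tested genes. Enah and Brk1 (2 of 39) were called with a log2 change of at least 0.5, a state of 3.71% of all genes. Daam1 and Arpc5 (2 of 39) were called with one of at most -0.5, a state of 4.95%. The median log2 change over the 39 was -0.08, with -0.01 over all tested genes. Without knockout replicate 3 the counts were 9 higher and 14 lower (59.0%, with 38.1% of all genes, 18.3% higher and 19.9% lower), and without control replicate 1 they were 4 higher and 10 lower (35.9%, with 22.7% of all genes, 10.6% higher and 12.2% lower).

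**Figure D1:**
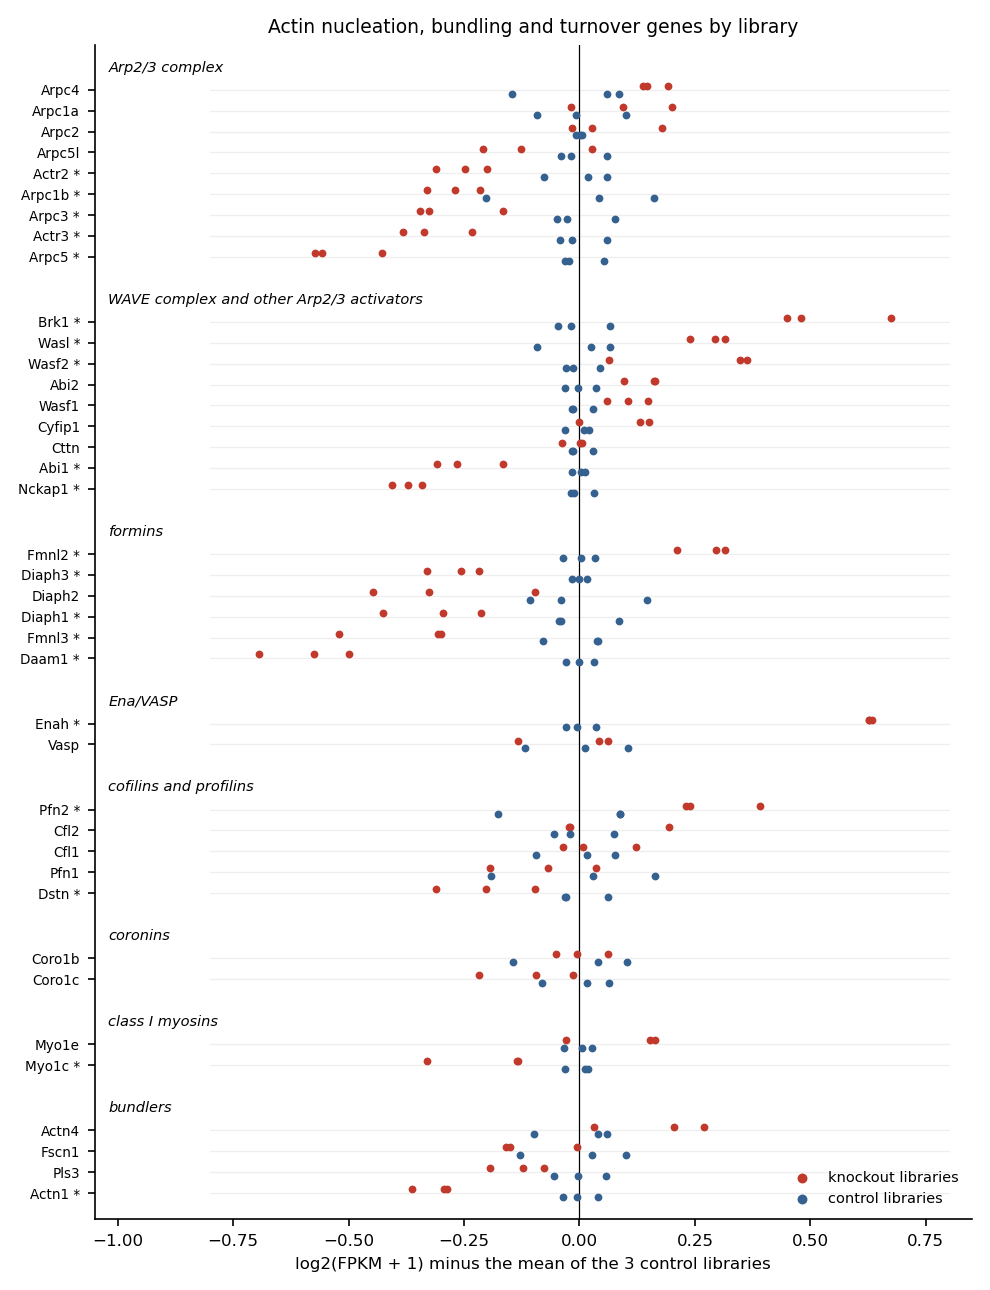
Change of each of the 39 tested members in each library, by family. The horizontal axis is log2(FPKM + 1) minus the mean of the 3 control libraries; red points are knockout libraries, blue points control libraries, and an asterisk marks a member with an adjusted p under 0.05 by limma. Daam1 and Arpc5 lie farthest to the left, and Enah and Brk1 farthest to the right.

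Among the 39 tested members, on the log2(FPKM + 1) scale, Enah and Brk1 had the largest rise and Daam1 and Arpc5 the largest fall, and the 250 bases before each of their RefSeq transcription starts (GRCm38.p6) are shown for that reason. Each line runs 5′ to 3′ on the strand of the gene. Capitals mark 2 promoter elements searched on both strands, the GC box (GGGCGG or its reverse complement), which Sp1-type factors bind, and the CCAAT box (CCAAT or its reverse complement), which NF-Y binds. Daam1 has a pair of annotated starts.
Enah at chr1:182019981-182020230, minus strand: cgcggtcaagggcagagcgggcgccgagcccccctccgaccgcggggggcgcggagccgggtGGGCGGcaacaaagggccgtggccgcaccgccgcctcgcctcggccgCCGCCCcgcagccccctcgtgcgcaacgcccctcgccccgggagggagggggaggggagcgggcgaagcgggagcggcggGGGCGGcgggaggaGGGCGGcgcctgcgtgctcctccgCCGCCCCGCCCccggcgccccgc
Brk1 at chr6:113604522-113604771, plus strand: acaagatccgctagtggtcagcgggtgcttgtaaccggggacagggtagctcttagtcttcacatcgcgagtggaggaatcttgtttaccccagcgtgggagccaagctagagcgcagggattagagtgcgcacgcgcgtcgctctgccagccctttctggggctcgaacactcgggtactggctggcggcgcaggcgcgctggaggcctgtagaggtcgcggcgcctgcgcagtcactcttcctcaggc
Daam1, first start, at chr12:71830818-71831067, plus strand: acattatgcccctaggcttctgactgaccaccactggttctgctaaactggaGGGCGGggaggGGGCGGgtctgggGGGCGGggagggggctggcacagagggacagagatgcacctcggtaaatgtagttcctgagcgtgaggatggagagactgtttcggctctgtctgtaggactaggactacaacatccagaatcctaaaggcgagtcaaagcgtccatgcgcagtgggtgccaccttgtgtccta
Daam1, second start, at chr12:71889293-71889542, plus strand: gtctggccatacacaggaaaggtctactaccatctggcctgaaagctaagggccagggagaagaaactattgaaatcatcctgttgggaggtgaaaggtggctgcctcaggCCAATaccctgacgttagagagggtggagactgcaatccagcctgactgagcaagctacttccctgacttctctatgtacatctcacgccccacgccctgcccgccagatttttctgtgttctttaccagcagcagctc
Arpc5 at chr1:152766292-152766541, plus strand: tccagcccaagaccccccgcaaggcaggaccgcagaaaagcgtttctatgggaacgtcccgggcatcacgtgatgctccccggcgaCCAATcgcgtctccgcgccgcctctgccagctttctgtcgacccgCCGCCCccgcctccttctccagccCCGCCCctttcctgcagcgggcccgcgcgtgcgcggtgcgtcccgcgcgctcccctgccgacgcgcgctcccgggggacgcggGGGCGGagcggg

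The window before Enah holds 6 GC boxes and is 84.8% G and C, and that before Arpc5 holds 3 GC boxes and 1 CCAAT box at 74.4%. The first Daam1 window holds 3 GC boxes at 58.0%, the second 1 CCAAT box at 52.8%, and the Brk1 window neither element at 63.2%. RefSeq windows were matched for 36 of the 44 symbols. A GC box was found upstream of 24 of the 36 (66.7%), and of 35.4% of all 27025 genes with a window. It was found before 5 of the 6 members that rose, 9 of the 12 matched members that fell and 10 of the rest of the 36, called in neither direction. These 10 include Evl and Lcp1, which were under the filter and not tested. Whether the box goes with a call was not tested. The 27025 genes were not limited to those that passed the expression filter, as most members did. A CCAAT box was found in 14 members (38.9%, with 37.5% of all genes). The CArG box, the site of serum response factor, was found in Arpc4 and Myo1e (5.56%, with 1.62% of all genes), neither of which passed the test, and the TATA box (TATAAA) in Fscn1 (2.78%, with 14.3% of all genes). The core GGAATG of TEAD sites was found in 8 members (22.2%, with 14.4% of all genes): Actn4, Arpc2, Evl, Fmnl3, Lcp1, Pfn1, Pls3 and Wasf1. Of these 8 only Fmnl3 was called in either direction. Matches can overlap: in the Enah window a pair of GC boxes shares a base and shows as 1 stretch of capitals. The letters of a GC box and of a CCAAT box on the other strand can overlap too. A match is a description of the window and not a binding site.

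Subunits of the Arp2/3 complex were lower or did not pass the test: of 9 members, 5 fell, 0 rose and 4 did not pass. Of all genes 18.7% were called lower and 16.9% higher. After each gene was centred on the median change of its chromosomal neighbours, 2 of the 9 were lower and 0 higher. In that setting 13.5% of all genes were lower and 13.0% were higher. Arpc5, a peripheral subunit (ENSMUSG00000008475, chromosome 1, 152766542 to 152775597, plus strand, GRCm38), measured 61.3, 62.0 and 67.9 FPKM in knockout libraries 1 to 3 and 89.7, 90.3 and 95.2 FPKM in control libraries 1 to 3. All knockout values lay below all control values, with knockout replicate 3 the nearest. Its log2 change was -0.52 ± 0.06 (SE), with an adjusted p of 0.000278 by limma. Actr3, which encodes Arp3, one of the pair of actin-related proteins that seed the new filament, measured 87.2, 90.0 and 96.9 FPKM in knockout and 113, 119 and 111 FPKM in control libraries (log2 change -0.32 ± 0.06, adjusted p = 0.00419, limma). Its partner Actr2, which encodes Arp2, measured 71.9, 75.1 and 77.7 FPKM in knockout and 90.6, 93.2 and 84.8 FPKM in control libraries (log2 change -0.25 ± 0.06, adjusted p = 0.0105, limma). Neither gene's groups overlapped, and the Actr2 call did not hold when control replicate 1 was left out (adjusted p = 0.0559, limma).

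Arpc3, another peripheral subunit, measured 26.4, 26.8 and 30.02 FPKM in knockout and 32.6, 33.1 and 35.7 FPKM in control libraries (log2 change -0.28 ± 0.07, adjusted p = 0.0114, limma). Arpc1b measured 51.3, 47.2 and 49.3 FPKM in knockout and 61.4, 51.7 and 66.8 FPKM in control libraries, with control replicate 2 close to the knockout values. It had a log2 change of -0.27 ± 0.09 and an adjusted p of 0.0433 by limma. That call was lost without any one of the knockout replicates (adjusted p 0.0666, 0.116 and 0.0860, limma) and without control replicate 1 or 3 (0.133 and 0.125), with no filter (0.124) and with plain eBayes, that is without trend and robust settings (0.0643). An exon stretch of Arpc1b, 18.2% of its exon length, is shared with Pdap1 on the opposite strand, so its reads are uncertain where strand was not used. Arpc2, a core subunit that binds the mother filament and the most abundant of the complex, measured 207, 201 and 230 FPKM in knockout and 202, 204 and 203 FPKM in control libraries (adjusted p = 0.478, limma). The groups overlapped, and knockout replicate 3 was the highest. Arpc4, the other core subunit, averaged 39.8 ± 0.832 FPKM in knockout and 35.6 ± 3.15 FPKM in control libraries (SD, n = 3). All its knockout values lay above all its control values, opposite to the subunits that fell. The difference did not pass (log2 change 0.16 ± 0.07, adjusted p = 0.103, limma). The paralogues Arpc1a and Arpc5l averaged 19.7 ± 1.57 and 12.4 ± 1.14 FPKM in knockout and 18.4 ± 1.30 and 13.4 ± 0.524 FPKM in control libraries, and neither passed (adjusted p = 0.368 and 0.291, limma).

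Relative to Arpc2, the level of 4 other subunit positions lay lower in every knockout library than in any control library. The summed FPKM of Arpc5 and Arpc5l was 0.352, 0.369 and 0.355 of that of Arpc2 in knockout libraries and 0.508, 0.512 and 0.533 in control libraries. The ratio of Actr3 to Arpc2 was 0.431 ± 0.0156 in knockout and 0.562 ± 0.0199 in control libraries, and that of Actr2 to Arpc2 0.353 ± 0.0188 in knockout and 0.441 ± 0.0213 in control libraries (SD, n = 3). Arpc3 stood at 0.131 ± 0.00284 of Arpc2 in knockout and 0.167 ± 0.00779 in control libraries. At the other positions the ranges overlapped: Arpc4 stood at 0.188 ± 0.0142 of Arpc2 in knockout and 0.175 ± 0.0159 in control libraries, and the sum of Arpc1a and Arpc1b at 0.325 ± 0.0181 in knockout and 0.386 ± 0.0444 in control libraries. The FPKM of the 9 genes summed to 577, 571 and 626 in knockout libraries and 658, 654 and 667 in control libraries. These ratios and sums are descriptions of transcript levels and were not tested.

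**Figure D2:**
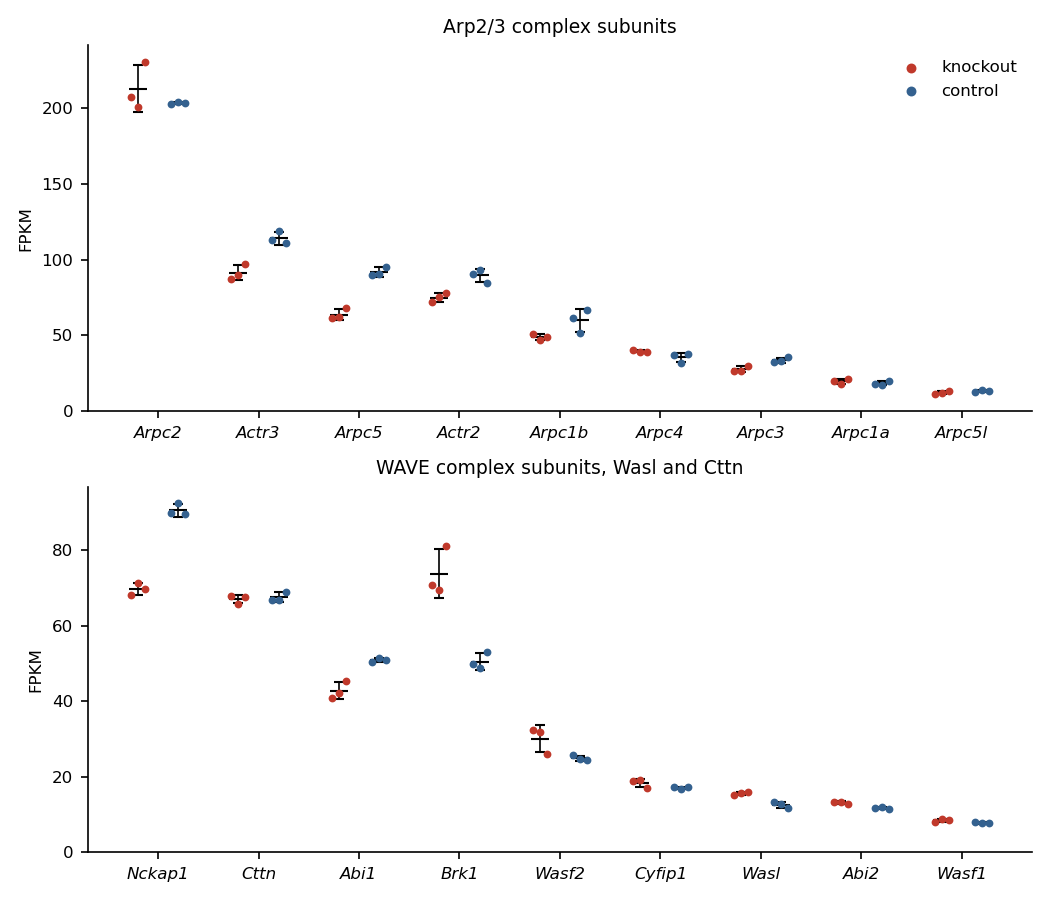
FPKM of the Arp2/3 subunits (upper panel) and of the WAVE complex subunits, Wasl and Cttn (lower panel) in each library, knockout in red and control in blue; black bars are the mean and the SD of 3 libraries. Arpc5, Actr3 and Nckap1 sit lower and Brk1 sits higher in the knockout libraries, and Arpc2 and Cttn overlap.

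Of the WAVE complex subunits and other activators of Arp2/3, 9 were in the test: 3 rose (33.3%, with 16.9% of all genes), 2 fell (22.2%, with 18.7% of all genes) and the other 4 did not pass. Brk1, the small HSPC300 subunit (ENSMUSG00000033940, chromosome 6, 113604772 to 113616951, plus strand, GRCm38), measured 70.8, 69.3 and 81.2 FPKM in knockout and 49.8, 48.9 and 52.9 FPKM in control libraries. The groups were far apart and knockout replicate 3 was the highest, with a log2 change of 0.53 ± 0.07 and an adjusted p of 0.000642 by limma. Nckap1, the scaffold subunit also called Nap1 (chromosome 2, 80500512 to 80581380, minus strand), moved the other way. It measured 68.1, 71.3 and 69.8 FPKM in knockout and 89.9, 92.6 and 89.5 FPKM in control libraries, tight within each group (log2 change -0.37 ± 0.05, adjusted p = 0.00067, limma). Abi1, the adaptor subunit, fell with 40.9, 42.2 and 45.3 FPKM in knockout and 50.4, 51.4 and 51.1 FPKM in control libraries (log2 change -0.25 ± 0.05, adjusted p = 0.00826, limma). Its paralogue Abi2 measured 13.3, 13.4 and 12.7 FPKM in knockout and 11.8, 12.1 and 11.5 FPKM in control libraries. The Abi2 groups did not overlap, but the difference did not pass (log2 change 0.14 ± 0.05, adjusted p = 0.0681, limma); it passed without knockout replicate 3 (adjusted p = 0.0338) and with quantile normalization (0.0422).

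Wasf2, which encodes WAVE2 and was more abundant than Wasf1, measured 32.4, 32.0 and 26.1 FPKM in knockout and 25.7, 24.6 and 24.4 FPKM in control libraries. Knockout replicate 3 lay next to the control values (log2 change 0.26 ± 0.08, adjusted p = 0.0385, limma). The call was lost without knockout replicate 1 or 2 (adjusted p = 0.119 and 0.117, limma) and without control replicate 1, 2 or 3 (0.0790, 0.0942 and 0.0998), with no filter (0.109) and with plain eBayes (0.0572), and without knockout replicate 3 the adjusted p was 0.00149. Wasf1, which encodes WAVE1, averaged 8.46 ± 0.290 FPKM in knockout and 7.79 ± 0.161 FPKM in control libraries (SD, n = 3; adjusted p = 0.17, limma). Cyfip1, the subunit that binds Rac, averaged 18.3 ± 1.08 FPKM in knockout and 17.1 ± 0.339 FPKM in control libraries (adjusted p = 0.243, limma; 0.0449 without knockout replicate 3). Wasl, which encodes N-WASP, an Arp2/3 activator outside the WAVE complex, rose with 15.1, 15.7 and 15.9 FPKM in knockout and 13.3, 12.8 and 11.8 FPKM in control libraries (log2 change 0.28 ± 0.06, adjusted p = 0.00737, limma). Cttn, which encodes cortactin, a stabiliser of branch points, differed little: 67.8, 65.8 and 67.6 FPKM in knockout and 66.9, 66.8 and 69.0 FPKM in control libraries (log2 change -0.01 ± 0.05, adjusted p = 0.888, limma). Relative to Nckap1, Brk1 stood at 1.04, 0.972 and 1.16 in knockout libraries and 0.554, 0.527 and 0.592 in control libraries, and Cyfip1 at 0.263 ± 0.0163 in knockout and 0.189 ± 0.00723 in control libraries (SD, n = 3). The sum of Wasf1 and Wasf2 stood at 0.553 ± 0.052 in knockout and 0.361 ± 0.013 in control libraries. That of Abi1 and Abi2 stood at 0.802 ± 0.0263 in knockout and 0.693 ± 0.00688 in control libraries. Nckap1 itself fell, so a ratio to it can rise for a gene that did not pass, such as Cyfip1. These ratios were not tested.

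Of the 6 formins, 4 fell (66.7%, with 18.7% of all genes), 1 rose (16.7%, with 16.9%) and 1 did not pass the test. After each gene was centred on the median change of its chromosomal neighbours, 3 were lower and 1 higher. In that setting 13.5% of all genes were lower and 13.0% higher. Daam1, a formin of the Wnt planar polarity pathway (ENSMUSG00000034574, chromosome 12, 71831078 to 71992333, plus strand, GRCm38), had the largest fall of the 39 tested members on the log2(FPKM + 1) scale. It measured 3.79, 4.05 and 3.42 FPKM in knockout and 5.998, 6.30 and 6.14 FPKM in control libraries (log2 change -0.59 ± 0.07, adjusted p = 0.000312, limma), with a wide gap between the groups. Fmnl2 and Fmnl3, a pair of related formins that elongate filaments at lamellipodia and filopodia, changed in opposite directions. Fmnl2 rose with 29.3, 28.9 and 27.2 FPKM in knockout and 23.9, 23.4 and 22.7 FPKM in control libraries (log2 change 0.27 ± 0.05, adjusted p = 0.00444, limma). Fmnl3 fell with 17.9, 17.9 and 15.2 FPKM in knockout and 22.9, 21.1 and 23.0 FPKM in control libraries (log2 change -0.38 ± 0.07, adjusted p = 0.00496, limma). Neither gene's groups overlapped. Among the diaphanous formins, which act under small GTPases, Diaph3 fell with 23.2, 23.9 and 22.1 FPKM in knockout and 28.3, 27.7 and 28.0 FPKM in control libraries (log2 change -0.27 ± 0.05, adjusted p = 0.00447, limma). Diaph1 fell with 15.4, 14.5 and 13.2 FPKM in knockout and 17.5, 17.5 and 19.2 FPKM in control libraries (log2 change -0.31 ± 0.07, adjusted p = 0.00954, limma). Diaph2 was low and did not pass, at 1.63, 2.08 and 1.42 FPKM in knockout and 2.20, 2.65 and 2.06 FPKM in control libraries, where the groups overlapped (adjusted p = 0.0683, limma). It passed with limma-voom on recovered reads (adjusted p = 0.0249), with the replicate number as a block (0.027) and without knockout replicate 2 (0.0281).

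Enah, which encodes Mena, an Ena/VASP protein that keeps filament ends growing (ENSMUSG00000022995, chromosome 1, 181896384 to 182019990, minus strand, GRCm38), had the largest rise of the 39 tested members on that scale. It measured 15.2 FPKM in each of the 3 knockout libraries and 9.41, 9.72 and 9.25 FPKM in control libraries 1 to 3. The spread within each group was small beside the difference (log2 change 0.63 ± 0.05, adjusted p = 3.61e-05, limma). Vasp, the more abundant family member, measured 74.0, 64.5 and 73.0 FPKM in knockout and 71.5, 65.2 and 76.3 FPKM in control libraries, which overlapped (adjusted p = 0.936, limma). Evl, the third member, was below the filter at 0, 0.129 and 0.0375 FPKM in knockout and 0, 0 and 0.0182 FPKM in control libraries, or 0 to 7 reads per library.

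Among the 5 genes of filament severing and monomer delivery, 1 rose, 1 fell and 3 did not pass. Cfl1, the non-muscle cofilin and the most abundant member of all, measured 356, 346 and 386 FPKM in knockout and 359, 332 and 374 FPKM in control libraries (log2 change 0.03 ± 0.07, adjusted p = 0.757, limma). Pfn1, the main profilin and second in abundance, measured 284, 260 and 306 FPKM in knockout and 304, 261 and 334 FPKM in control libraries (adjusted p = 0.587, limma). In both genes replicate 2 was the lowest library of each group and the groups overlapped. Dstn, which encodes destrin, a relative of cofilin that also depolymerises filaments, measured 152, 163 and 176 FPKM in knockout and 184, 196 and 184 FPKM in control libraries. It fell by 0.20 ± 0.07 on the log2 scale, with an adjusted p of 0.0481 by limma. The call was lost with median-of-ratios rescaling (adjusted p = 0.0654), with no filter (0.10), with plain eBayes (0.0601) and without knockout replicate 1 or 2 (0.162 and 0.110) or control replicate 1, 2 or 3 (0.114, 0.128 and 0.0818). Cfl2, the muscle-type cofilin, averaged 37.2 ± 3.36 FPKM in knockout and 35.9 ± 1.74 FPKM in control libraries (SD, n = 3; adjusted p = 0.623, limma). Pfn2 was a minor transcript, at 2.51, 2.49 and 2.90 FPKM in knockout and 1.63, 2.16 and 2.16 FPKM in control libraries (log2 change 0.29 ± 0.09, adjusted p = 0.0437, limma). That call was lost without any one library, with adjusted p between 0.0559 and 0.154, and with no filter (0.109).

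The 2 coronins, which help turn over branched networks, did not pass, where 35.6% of all tested genes were called. Coro1b measured 50.0, 46.2 and 47.7 FPKM in knockout and 49.2, 43.3 and 51.5 FPKM in control libraries (log2 change 0.00 ± 0.07, adjusted p = 0.985, limma), and Coro1c averaged 18.1 ± 1.35 FPKM in knockout and 19.6 ± 1.04 FPKM in control libraries (SD, n = 3; adjusted p = 0.251, limma). Of the class I myosins, which link filaments to membranes, Myo1c fell with 50.1, 50.0 and 43.6 FPKM in knockout and 55.8, 53.8 and 55.6 FPKM in control libraries (log2 change -0.20 ± 0.07, adjusted p = 0.0411, limma). The groups did not overlap, and the call was lost without knockout replicate 2 (adjusted p = 0.0526), control replicate 1 (0.136), 2 (0.066) or 3 (0.0974), with quantile normalization (0.0607), with no filter (0.0981) and with plain eBayes (0.0598). Myo1e averaged 13.2 ± 1.04 FPKM in knockout and 12.2 ± 0.286 FPKM in control libraries (SD, n = 3; adjusted p = 0.287, limma; 0.0355 without knockout replicate 3).

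Of the bundlers, 1 of 4 tested members fell (25.0%, with 18.7% of all genes) and 0 rose (with 16.9% of all genes). Actn1, an alpha-actinin of stress fibres and adhesions, measured 46.9, 47.1 and 44.6 FPKM in knockout and 56.3, 57.5 and 59.4 FPKM in control libraries (log2 change -0.31 ± 0.05, adjusted p = 0.00181, limma). Its paralogue Actn4 measured 90.0, 85.9 and 76.2 FPKM in knockout and 76.6, 69.5 and 77.6 FPKM in control libraries. The Actn4 groups overlapped through knockout replicate 3 (log2 change 0.17 ± 0.08, adjusted p = 0.114, limma), and without that library the adjusted p was 0.0201. Fscn1, which encodes fascin, the bundler of filopodia and the most abundant of the group, measured 134, 121 and 121 FPKM in knockout and 137, 123 and 144 FPKM in control libraries (adjusted p = 0.301, limma). Pls3, which encodes T-plastin, measured 103, 109 and 112 FPKM in knockout and 118, 123 and 114 FPKM in control libraries. The Pls3 groups did not overlap, yet the difference did not pass (log2 change -0.13 ± 0.06, adjusted p = 0.11, limma); it passed with quantile normalization (adjusted p = 0.019) and without knockout replicate 3 (0.0454).

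The 4 members under the filter were not tested. Lcp1, which encodes L-plastin, a bundler of leukocytes that carcinoma cells can also express, measured 0.116, 0.148 and 0.174 FPKM in knockout libraries (21 to 30 reads) and 0.365, 0.391 and 0.292 FPKM in control libraries (52 to 66 reads). Myo1d, a class I myosin, measured 0.122, 0.0418 and 0.0512 FPKM in knockout libraries (5 to 15 reads) and 0.417, 0.261 and 0.380 FPKM in control libraries (30 to 49 reads). Both genes had lower values in every knockout library than in any control library. Cyfip2, the paralogue of Cyfip1, was at 0.00776 to 0.0457 FPKM in knockout and 0.0158 to 0.0451 FPKM in control libraries, 1 to 6 reads each. For this group, as for Evl, the level is near the lower limit of the measurement.

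The balance of paralogues differed between the groups in several families; it is given as shares of summed FPKM, without a test, for families chosen after their values were seen. Fmnl2 made up 62.1%, 61.7% and 64.1% of the sum of Fmnl2 and Fmnl3 in knockout libraries and 51.1%, 52.6% and 49.7% in control libraries. Enah made up 17.0%, 19.1% and 17.2% of the sum of Enah and Vasp in knockout libraries and 11.6%, 13.0% and 10.8% in control libraries. Actn1 made up 34.3%, 35.4% and 37.0% of the sum of Actn1 and Actn4 in knockout libraries and 42.4%, 45.3% and 43.3% in control libraries. In these 3 families, and for the shares of Abi1, Arpc1b and Arpc5 given below, the groups were apart by more than their ranges. After centring on chromosomal neighbours, the log2 changes of Actn1 and Actn4 were -0.051 and -0.012 (adjusted p = 0.501 and 0.926, limma). Smaller differences with no overlap were found for Abi1 within Abi1 and Abi2 (76.5 ± 1.41% in knockout and 81.2 ± 0.349% in control libraries), for Arpc1b within Arpc1a and Arpc1b (71.4 ± 1.38% in knockout and 76.4 ± 1.19% in control libraries) and for Arpc5 within Arpc5 and Arpc5l (83.7 ± 0.527% in knockout and 87.3 ± 0.621% in control libraries; SD, n = 3). Dstn made up 29.0 ± 1.07% of the sum of Cfl1, Cfl2 and Dstn in knockout and 32.5 ± 1.91% in control libraries, Pfn2 0.919 ± 0.0401% of the profilins in knockout and 0.666 ± 0.146% in control libraries, and Coro1b 72.6 ± 1.30% of Coro1b and Coro1c in knockout and 71.0 ± 0.768% in control libraries, also with no overlap. The shares of Wasf2 within Wasf1 and Wasf2 (78.0 ± 2.21% in knockout, 76.2 ± 0.154% in control) and of Diaph3 within the 3 Diaph genes (59.0 ± 1.26% in knockout, 57.9 ± 1.07% in control) overlapped between groups.

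**Figure D3:**
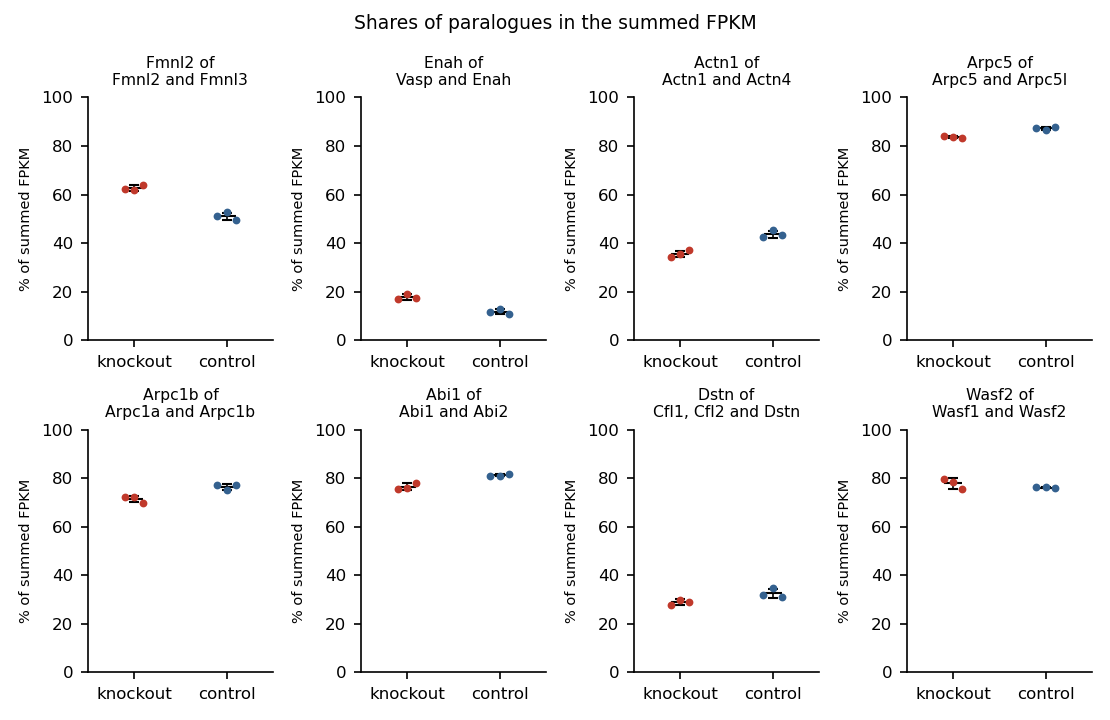
Share of 1 paralogue in the summed FPKM of its family, in percent, for each library; knockout in red on the left, control in blue on the right, black bars the mean and SD of 3 libraries. The share of Fmnl2 lies between 61.7% and 64.1% in knockout and between 49.7% and 52.6% in control libraries, and the share of Wasf2 overlaps.

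Genes near each other on a chromosome can change together, so each member was set beside its neighbours. For each gene the median log2 change of up to 20 tested genes on each side was taken; it ranged from -0.26 to 0.19 around the members, and 16 of the 20 called members (80.0%) had neighbours with a median of the same sign, with 75.3% of all 3969 called genes that have such a median. After each gene was centred on that median, 11 of the 20 kept their call and 0 others gained one: 4 members were higher and 7 lower, or 28.2% called, with 26.6% of all genes called in that setting (13.0% higher and 13.5% lower). Enah, Brk1, Wasl and Fmnl2 stayed higher, and Arpc3, Arpc5, Nckap1, Abi1, Diaph3, Fmnl3 and Daam1 stayed lower. Enah rose by 0.75 on the centred scale, among neighbours at -0.12, and Diaph3 fell by 0.46, among neighbours at 0.19. Actr3 and Actn1 lay among neighbours at -0.26, close to their own log2 changes of -0.32 and -0.31, and had adjusted p of 0.524 and 0.501 by limma after centring. Arpc5, on the same chromosome as Actr3 and among neighbours at -0.26, kept a centred log2 change of -0.26 (adjusted p = 0.0123, limma). Brk1 and Arpc4 lie near each other on chromosome 6 among neighbours at 0.16; Brk1 kept a centred change of 0.38 (adjusted p = 0.00501, limma), and that of Arpc4 was 0.00 (adjusted p = 0.976). Actr2, Diaph1, Dstn, Myo1c, Arpc1b, Wasf2 and Pfn2 also lost their calls, with adjusted p between 0.107 for Actr2 and 0.414 for Wasf2.

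**Figure D4:**
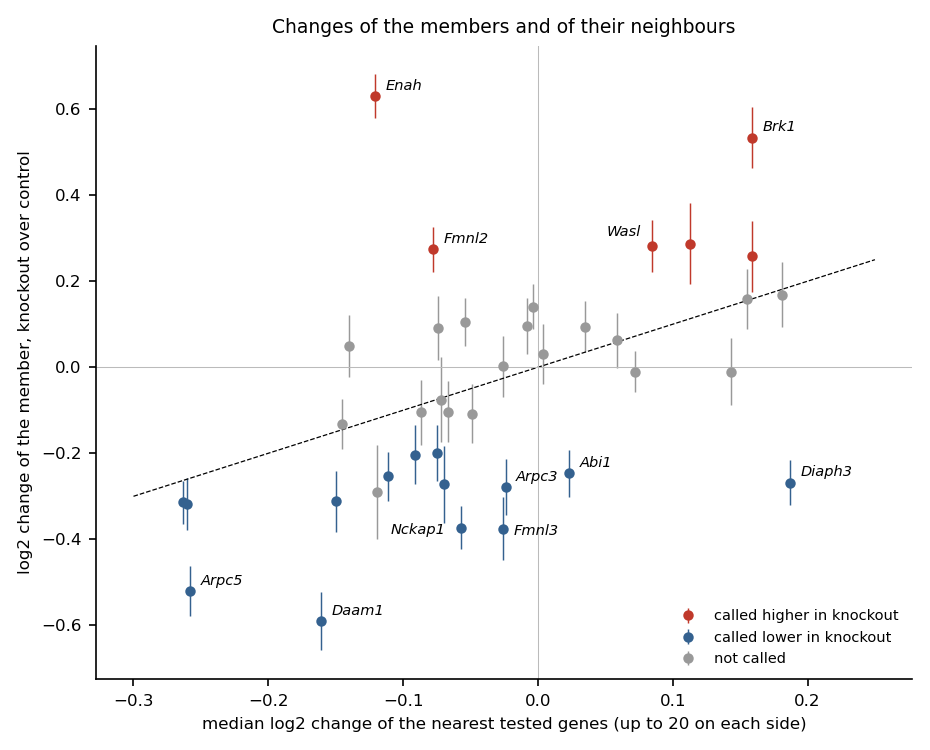
Log2 change of each tested member (vertical axis, knockout over control on log2(FPKM + 1), bars are the SE) against the median log2 change of up to 20 tested genes on each side (horizontal axis). Red and blue points are members called higher and lower in knockout cells, grey points were not called, the dashed line marks equal values, and the names are those of the 11 members still called after centring.

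Other genes of the same pathways were read in 3 lists. Of 12 tested relatives of the members (15 others were below the filter), 5 fell (41.7%, with 18.7% of all genes) and the only gene called higher was one that passed the filter through the knockout libraries alone. With the filter of 5 FPKM 3 of 6 were lower and 0 higher, where 20.5% of all genes were lower and 19.4% higher. After centring 3 of 12 were lower and 1 higher, where 13.5% of all genes were lower and 13.0% higher. Fmnl1, a formin of the same group as Fmnl2 and Fmnl3, measured 32.3, 31.6 and 28.4 FPKM in knockout and 45.2, 43.1 and 48.3 FPKM in control libraries (adjusted p = 0.000419, limma). The coronin Coro6 fell to 3.11 FPKM on average in knockout cells, against 4.53 FPKM in control cells (adjusted p = 0.00562, limma). The gene called higher was Pls1, which encodes the plastin of epithelial brush borders and passed the filter only in the knockout libraries, at 1.01 to 1.035 FPKM, with 0.523 to 0.549 FPKM in control libraries; it is named as the single riser, after its values were seen, and its call was fixed in part by how it entered the test.

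Of 29 tested GTPases, kinases and adaptors upstream, 4 rose, 6 fell and 19 did not pass, or 34.5% called, close to the 35.6% of all genes. Rhob, a small GTPase of endosomes and stress fibres, measured 24.5, 24.4 and 26.0 FPKM in knockout and 39.6, 36.2 and 44.4 FPKM in control libraries (log2 change -0.66 ± 0.08, adjusted p = 0.000292, limma). Wipf1, which encodes WIP, the partner of N-WASP, fell to 8.35 FPKM on average in knockout cells, against 12.7 FPKM in control cells (adjusted p = 0.00023, limma), while Wasl itself rose. Baiap2l1, which encodes IRTKS, a protein that links curved membranes to actin assembly, measured 0.920, 0.803 and 0.442 FPKM in knockout and 2.81, 2.84 and 3.37 FPKM in control libraries, and passed the filter only through the control libraries. The 6 that fell include Baiap2l1, whose call was fixed in part by how it entered the test. Nck2, an adaptor that recruits N-WASP, rose to 28.3 FPKM in knockout cells, against 21.8 FPKM in control cells (adjusted p = 0.00214, limma). Iqgap3, a scaffold of the IQGAP family that binds Rac and Cdc42, averaged 10.4 FPKM in knockout and 7.71 FPKM in control cells (adjusted p = 0.0118, limma; 0.106 after centring). Rac3, a Rac GTPase, averaged 2.97 FPKM in knockout and 2.35 FPKM in control cells (adjusted p = 0.0481, limma), and this call was lost without any knockout replicate or without control replicate 1 or 2 (adjusted p between 0.0848 and 0.174), and with limma-voom on recovered reads (0.139).

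Of 22 tested turnover, monomer-binding and bundling factors outside the 44, 5 rose, 7 fell and 10 did not pass (54.5% called, with 35.6% of all genes; 22.7% higher, with 16.9%, and 31.8% lower, with 18.7%). Marcks, an actin-binding substrate of protein kinase C, had 2, 0 and 0 reads in knockout libraries and 195, 176 and 223 reads in control libraries (0.0259, 0 and 0 FPKM in knockout and 2.65, 2.45 and 2.94 FPKM in control), and passed the filter only through the control libraries. The 7 that fell include Marcks, whose call was fixed in part by how it entered the test. Its relative Marcksl1 rose to 84.8 FPKM in knockout cells, against 71.2 FPKM in control cells (adjusted p = 0.0313, limma). The Marcksl1 call was lost without knockout replicate 2 or 3 (0.0683 and 0.0668) or control replicate 2 or 3 (0.0811 and 0.0526), and after centring (0.503). Tes, which encodes testin, a partner of Ena/VASP proteins, rose with 26.9, 25.9 and 27.6 FPKM in knockout and 19.5, 18.0 and 18.8 FPKM in control libraries (log2 change 0.49 ± 0.05, adjusted p = 0.00023, limma). Spire2, a filament nucleator, fell to 4.95 FPKM in knockout cells, against 7.95 FPKM in control cells (adjusted p = 0.00132, limma), and Svil, which encodes supervillin, to 6.64 FPKM, against 10.4 FPKM in control cells (adjusted p = 0.00119). Tmsb10, a monomer-binding thymosin, measured 233, 213 and 211 FPKM in knockout and 159, 121 and 189 FPKM in control libraries (adjusted p = 0.0381, limma). The control libraries spread widely, and the call was lost without any knockout replicate or control replicate 1 (adjusted p between 0.0836 and 0.114), with quantile normalization (0.0723) and after centring (0.222).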

How the data were processed

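RNA from 3 knockout and 3 control libraries was measured by RNA sequencing; per the labels' protocols it was extracted with Trizol. The authors deposited 1 table with values of the form of FPKM, read as that unit from the values. Per the submitters' processing notes, build mm10 was used with HTSeq 0.6.0, TopHat2 2.0.12, TopHat, CASAVA, Bowtie2 and Bowtie. The sources used here give neither their roles nor the annotation release or strand setting, and reads of overlapping genes or near-identical copies may be split. Symbols were found for 23577 of 23644 rows, and positions and exon lengths come from GENCODE M21 (GRCm38, also called mm10). The value spacing gave the read totals, with 91.9% to 92.2% of values up to 500 reads whole within 0.02 of a read; these depths are approximate.

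The test was limma (version 3.58.1, run in R 4.3.3, trended and robust eBayes) on log2(FPKM + 1), for genes that reached 1 FPKM in 3 or more of the 6 libraries; p-values were adjusted by Benjamini-Hochberg over all of these genes. Log2 changes are on that scale and understate the change of low genes. No pair of libraries within a group agreed within counting noise, so none was treated as 1 library deposited more than once; this does not show that they came from separate cultures. Members and gene lists were chosen with earlier results of these data known. Values per library are given for called members and the most abundant of each family; from the other lists up to 3 called genes per direction with the largest change and at least 2 FPKM in the higher group. One gene that this rule names is not reported here. The alternatives were centring on neighbours, leaving out each library, limma-voom on recovered reads, a replicate block, plain eBayes, a test against 1.5-fold, quantile normalization, rescaling by the median of ratios, filters of 0 and 5 FPKM, and pseudocounts of 0.1 and 5. Python 3.11.15 with pandas 2.3.3 and matplotlib 3.10.9 was also used.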

Additional observations from a re-analysis of the deposited data

How the results depend on the processing

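A test against a 1.5-fold change called 118 genes higher and 193 lower in knockout cells, in place of 1886 and 2087, with 0 and 0 members. In that test 0 higher and 0 lower relatives, 0 higher and 1 lower upstream genes and 0 higher and 1 lower turnover factors were called. Baiap2l1 and Marcks had the largest falls of the tested upstream genes and turnover factors (-1.226 and -1.865). Both passed the filter only through the control libraries, so a call as lower was fixed in part by how they entered the test. Centring on neighbours gave 7 members lower in place of 14, a median of -0.018 over the members, 3 relatives lower in place of 5, 2 upstream genes higher in place of 4 and 3 turnover factors higher in place of 5. Pls3 and Actn4, which did not pass the test, changed sign after centring (0.014 and -0.012); the cause was not tested. With the filter of 5 FPKM 0 relatives were higher in place of 1 and 3 lower. With no filter 2 relatives, 2 upstream genes and 2 turnover factors were higher, and with quantile normalization 3 turnover factors were. With 1 library left out, the count of genes called ranged from 1182 to 2041 higher and from 1358 to 2218 lower, with 4 to 9 members higher and 10 to 14 lower and a member median between -0.073 and 0.005; 1 to 2 relatives were higher and 3 to 5 lower, 2 to 6 upstream genes were higher, and 2 to 6 turnover factors higher and 4 to 7 lower. Members near 0 changed sign when a library was left out, none of them called in either direction: Cttn ranged from -0.018 to 0.005, Vasp from -0.069 to 0.053, Cfl1 from -0.016 to 0.070, Cfl2 from -0.022 to 0.087, Pfn1 from -0.171 to 0.007 and Coro1b from -0.069 to 0.054. Same-numbered libraries deviated together with correlations of -0.0615, 0.149 and 0.0981, so the numbers were not taken as pairs; with the replicate block 6 members were higher and 15 lower. Of the 20 called members 11 kept their call in every alternative but the 1.5-fold test. Evl and Cyfip2 rest on 0 to 7 reads per library.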
